A study of Mus musculus with 33 samples.

Results

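The genes described here moved in opposite directions in 2 arms of a mouse stem cell differentiation when the inducing compounds were removed. For each gene the change from day 10 to day 16 (its step, on the log2(FPKM + 1) scale) was taken in the RA arm and in the RA/CHIR arm. The difference of steps is the RA/CHIR step minus the RA step. Of 52631 genes in the table, 14812 had an FPKM of 1 or more in at least 3 of the 12 libraries of these groups and were tested. The steps had opposite signs in 5383 of them, which is 36.3% of the genes tested. Most of these signs belong to small differences, so the members described one by one are the 59 genes whose steps were both called, with opposite signs. A step was called at an adjusted p under 0.05 (limma on log2(FPKM + 1), Benjamini-Hochberg over the genes tested) and a size of at least 1. Of the 59 members, 17 (0.115% of the genes tested) rose in RA/CHIR and fell in RA, and 42 (0.284%) fell in RA/CHIR and rose in RA. Since the signs and calls of the steps chose the members, their steps are given as a description, without p-values.

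Embryonic stem cells of strain 129S2/SvPas were plated on gelatin in medium with 15% serum. They received 10 µM all-trans retinoic acid (RA arm), or the same retinoic acid with 5 µM CHIR (RA/CHIR arm). CHIR is the usual short name of a GSK3 inhibitor that activates Wnt/beta-catenin signalling. Both arms carried retinoic acid, so they differ in CHIR. After 10 days the inducers were left out and the cells were kept for 6 days in medium with 10% serum. The 4 groups, RA-10d, RA-16d, RA/CHIR-10d and RA/CHIR-16d, have 3 libraries each. The labels call the cells of the RA arm SMC-like, for smooth muscle cells, and those of the RA/CHIR arm XEN-like, for extraembryonic endoderm stem cells. Undifferentiated stem cells grown on feeder fibroblasts (mES), an SMC line, a XEN line and days 4 and 7 of both arms give further levels. No group was kept on its inducers to day 16. A step therefore holds the loss of the inducers, the lower serum and 6 more days of culture, which cannot be told apart. The labels do not say whether replicates are separate cultures, so p-values measure the spread between these libraries, which may be technical.

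Retinoic acid binds nuclear receptors that sit on DNA and switch target genes directly. Its level in a cell is set by enzymes that make it, binding proteins that carry it and CYP26 enzymes that break it down. A GSK3 inhibitor stabilises beta-catenin, which works with TCF/LEF factors on target genes, several of which feed back on the Wnt pathway. Extraembryonic endoderm forms the yolk sac. Its visceral layer secretes apolipoproteins, transthyretin and alpha-fetoprotein much as the later liver does, and its parietal layer makes basement membrane.

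The 12 libraries held 12876 to 13662 genes at 1 FPKM or more. Counts and mapped reads are not in the table used here, so the depth behind each value is known only relative to 1 library, from the value that 1 read takes in low genes. On that scale the libraries ranged from 0.79 to 1.165 times RA-10d replicate 1. The RA/CHIR-16d libraries were the lowest, at 0.859, 0.79 and 0.895, and the next was RA-16d replicate 1, at 0.908. Low values in RA/CHIR-16d thus rest on fewer reads. Markers of the labelled cell types were checked first. Acta2, smooth muscle actin, stood at 11435 ± 138 FPKM (SD, n = 3) in the SMC line, 3683 ± 355 in RA-16d and 189 ± 1.48 in RA/CHIR-16d. The endoderm factor Gata4 stood at 246 ± 2.81 in the XEN line, 185 ± 9.88 in RA/CHIR-16d and 53.5 ± 5.09 in RA-16d. Summed over 16 listed endoderm factors, RA/CHIR-16d read 899.1 to 1004.9 FPKM and RA-16d 300.5 to 327.0. The XEN line read 722.7 to 758.1. Their steps did not separate the arms, with medians of 0.31 in RA/CHIR and 0.38 in RA over the 13 tested. Gata6 had steps of 2.13 in RA/CHIR and 0.06 in RA, but Sox17 had 0.11 and 1.48. The pluripotency factor Pou5f1 still read 144 ± 5.15 FPKM in RA/CHIR-16d, against 4.31 ± 1.08 in RA-16d and 0.238 ± 0.22 in the XEN line. In bulk RNA, fewer cells of a type and less RNA per cell cannot be told apart.

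The RA/CHIR step was called for 2418 of the genes tested (16.3%), with 9.36% of all genes higher and 6.96% lower on day 16. The RA step was called for 1497 (10.1%), with 8.13% higher and 1.98% lower. The 293 lower calls in RA became 450 under quantile normalization, 535 with a pseudocount of 0.1 and 192 with a filter at 5 FPKM. The difference of steps was called for 2396 of 14812 genes, which is 16.2%. It was higher in RA/CHIR for 973 genes (6.57%) and lower for 1423 (9.61%). Opposite signs were found in 1338 of the called genes, 9.03% of those tested, 498 of them higher in RA/CHIR (3.36%) and 840 lower (5.67%). For 508 of these genes only the RA/CHIR step was also called, for 293 only the RA step, and for 478 neither. The 59 genes called in both steps are 0.398% of the genes tested, or 890 genes (6.01%) with no minimum size, whereas 571 genes (3.85%) were called in both steps with the same sign. Just inside the limit lay 9930012K11Rik, with steps of 1.53 in RA/CHIR and -1.0 in RA, and Col8a1, with steps of -1.01 and 2.78. Just outside lay Fgfr3, with 1.55 and -0.97, and Nrep, with -0.98 and 1.67. The libraries of day 10 and day 16 did not overlap in either arm, in opposite directions, in 1318 genes (8.9%), among them 58 of the 59 members. The exception was Fxyd2.

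**Figure D1:**
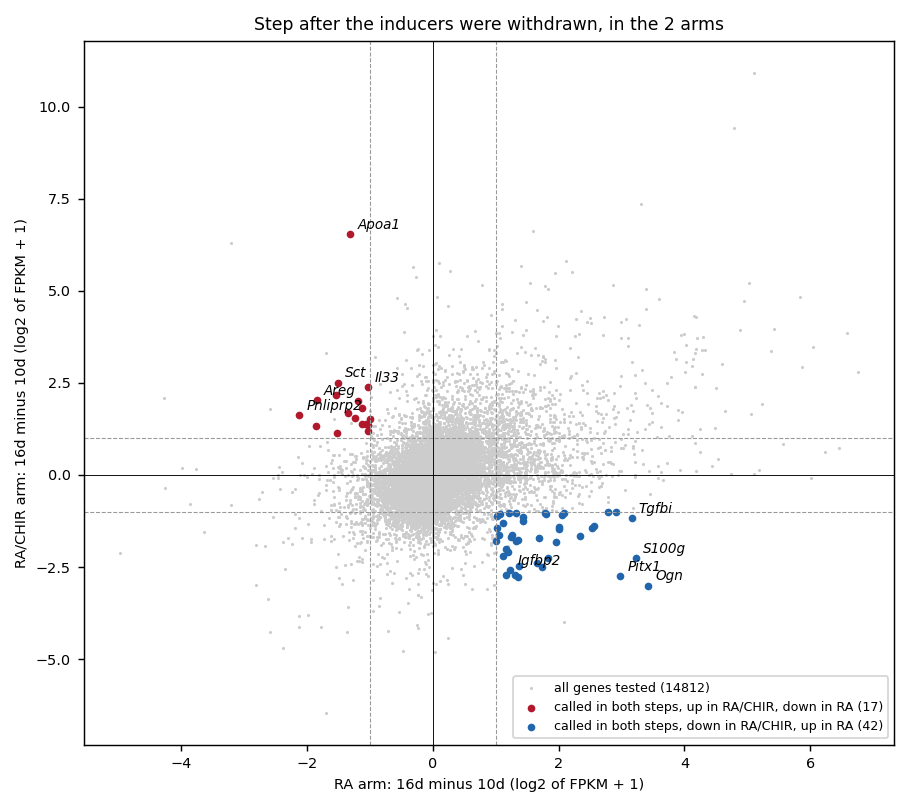
Each point is 1 gene of the 14812 tested, with its RA step (16d minus 10d) on the x axis and its RA/CHIR step on the y axis, both on the log2(FPKM + 1) scale. The dashed lines mark a size of 1, and grey points beyond both lines in these corners missed the adjusted p. The 17 red genes lie at the upper left and the 42 blue genes at the lower right. Apoa1, at 6.54 on the y axis, stands far above the other red genes.

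Of the genes that rose in RA/CHIR and fell in RA, the secreted proteins Apoa1, Sct, Npb and Pnliprp2 are described first. Apoa1 codes for the main apolipoprotein of high-density lipoprotein, which yolk sac endoderm and liver secrete. Apoa1 (GRCm38, chr9:46228580-46230466, plus strand) read 10.5, 9.16 and 8.89 FPKM in RA-10d and 3.20, 3.56 and 2.98 in RA-16d. In RA/CHIR it read 0.850, 0.765 and 1.23 on day 10 and 176.4, 181.5 and 178.5 on day 16. The arm with the lower level on day 10 thus had the higher level on day 16, with no overlap between groups on either day. The steps were 6.54 ± 0.10 (SE) in RA/CHIR and -1.31 ± 0.10 in RA. The XEN line stayed at 0.918 ± 0.427 FPKM (SD, n = 3) and the SMC line at 0.108 ± 0.0939.

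Sct codes for secretin, a gut hormone. It read 4.03, 4.04 and 7.81 FPKM in RA-10d and 1.67, 0.601 and 1.25 in RA-16d. In the RA/CHIR arm it read 1.99, 0.733 and 7.68 on day 10 and 17.2, 21.5 and 18.9 on day 16. The arms overlapped on day 10 and were apart on day 16, and replicate 3 of RA/CHIR-10d was well above the other libraries of its group. The RA step of -1.51 ± 0.47 was no longer called without RA-10d replicate 3 (-1.24) and without RA-16d replicate 2 (-1.31). Npb, the neuropeptide B precursor, went from 2.01, 3.10 and 2.37 FPKM in RA-10d to 0.736, 0 and 0 in RA-16d. In RA/CHIR it went from 1.79, 1.28 and 2.63 to 11.3, 9.81 and 14.9. Like Sct, it overlapped between the arms on day 10 and not on day 16. Pnliprp2, a lipase of the pancreatic lipase family, went from 5.18, 5.90 and 4.96 to 0.185, 0.739 and 0.511 FPKM in RA, and from 0.134, 0 and 0.137 to 2.55, 1.70 and 2.91 in RA/CHIR. Its arms exchanged places without overlap on either day.

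Signalling proteins that act outside the cell are described together. Areg codes for amphiregulin, a ligand of the EGF receptor. It read 18.8, 15.9 and 17.4 FPKM in RA-10d and 5.12, 3.18 and 4.20 in RA-16d. In the RA/CHIR arm it rose from 0.789, 0.196 and 0.0815 to 5.35, 4.73 and 3.36. The arms started far apart and overlapped on day 16, which was the case for no other of the 17 genes. Il33, a cytokine of the interleukin-1 family, went from 39.0, 37.5 and 36.9 to 19.3, 17.5 and 17.2 FPKM in RA, and from 1.56, 0.818 and 1.25 to 11.4, 9.53 and 10.7 in RA/CHIR. Cxcl10, a chemokine induced by interferon, went from 28.8, 25.1 and 25.7 to 6.79, 9.84 and 9.31 in RA, and from 0.706, 0.118 and 0.434 to 1.20, 3.18 and 2.16 in RA/CHIR. For both genes the RA/CHIR libraries stayed below the RA libraries on both days, so the arms drew nearer and kept their order. The RA/CHIR step of Cxcl10 was under the minimum size without RA/CHIR-10d replicate 2 (0.97) and without RA/CHIR-16d replicate 2 (0.91).

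Myl7, the myosin light chain of heart atrium, went from 24.8, 22.5 and 29.6 FPKM in RA-10d to 7.31, 5.94 and 5.80 in RA-16d. In RA/CHIR it went from 9.45, 7.93 and 12.6 to 24.9, 28.5 and 25.7. The levels of RA-10d and RA/CHIR-16d lay in the same range, and so the arms exchanged places. Pparg, the nuclear receptor of fat cell formation, went from 6.22, 7.65 and 7.69 to 3.01, 2.18 and 2.23 in RA, and from 1.16, 1.22 and 2.30 to 4.81, 6.37 and 8.08 in RA/CHIR. Upk1a, a uroplakin of the bladder lining, went from 13.6, 15.0 and 13.3 to 5.73, 4.80 and 6.39 in RA, and from 0.996, 0.893 and 1.40 to 8.74, 6.90 and 6.71 in RA/CHIR. Both again exchanged places between the arms without overlap. Grtp1, a protein with a TBC domain named for its growth hormone response, read 17.3 to 18.8 FPKM in RA-10d and 17.2 to 21.5 in RA/CHIR-10d. On day 16 it read 7.45 to 8.01 in RA and 72.1 to 74.0 in RA/CHIR, so the arms parted from a shared level. Slc37a2, a sugar phosphate transporter, also started from overlapping levels and parted to 0.882 to 1.07 in RA and 8.61 to 10.1 in RA/CHIR. Its RA step fell under the minimum size without RA-10d replicate 2 (-0.96) or RA-16d replicate 2 (-0.98). Grtp1 overlaps the gene of the abundant lysosomal protein Lamp1 on the other strand, and Cxcl10 overlaps Art3. Reads of such pairs cannot be told apart unless the counting used strand, which the sources used here do not give.

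The promoters of 2 of these genes are shown because each held a match to a known control element. The motifs were chosen after the values had been seen, and a match is a description, not a site in use. The sequences are the 250 bases before the annotated start on GRCm38.p6, 5′ to 3′ along the gene's strand, from RefSeq, with the match in capitals. Areg (chr5:91139349-91139598, plus strand) held the cAMP response element TGACGTCA, 61 bases before its start. Myl7 (chr11:5898783-5899032, minus strand) held a CArG box, the element bound by serum response factor, also 61 bases before its start.
Areg: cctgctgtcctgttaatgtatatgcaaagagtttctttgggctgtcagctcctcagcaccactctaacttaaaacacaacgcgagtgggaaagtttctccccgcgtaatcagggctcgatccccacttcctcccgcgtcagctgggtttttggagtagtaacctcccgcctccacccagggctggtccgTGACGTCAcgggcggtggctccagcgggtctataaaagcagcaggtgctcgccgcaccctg
Myl7: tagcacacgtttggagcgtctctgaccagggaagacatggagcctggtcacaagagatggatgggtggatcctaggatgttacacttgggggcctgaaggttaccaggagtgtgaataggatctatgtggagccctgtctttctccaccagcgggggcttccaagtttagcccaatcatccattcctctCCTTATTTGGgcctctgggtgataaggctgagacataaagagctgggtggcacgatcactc
On either strand, the cAMP response element occurred in 1.55% of 32851 promoter windows of this length and the CArG box in 1.47%. Windows were listed for 46 of the 59 members, 13 of those that rose in RA/CHIR and 33 of those that fell. A member was counted once if any of its listed windows matched, so counts of members and shares of windows are unlike measures. No other of the 13 held the cAMP response element or a CArG box, and among the 33 a CArG box was found for Cited1.

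The remaining 5 of the 17 genes were Upk3bl, 9930012K11Rik, Rab37, Hsd17b14 and Lhfpl2. Lhfpl2, a membrane protein of the LHFP family, had the highest level of them, with 42.8 ± 2.07 FPKM (SD, n = 3) in RA-10d and 20.5 ± 2.68 in RA-16d. In the RA/CHIR arm it stood at 30.7 ± 1.90 and 70.9 ± 2.09. Rab37, a small GTPase of vesicle release, went from 1.59 ± 0.198 to 0.184 ± 0.160 in RA and from 0.373 ± 0.180 to 2.60 ± 0.395 in RA/CHIR. All 5 stood higher in RA on day 10 and higher in RA/CHIR on day 16, without overlap. Over the 17 genes the RA/CHIR steps ran from 1.14 to 6.54 with a median of 1.62, and the RA steps from -2.12 to -1.0 with a median of -1.24. The median over all genes tested was 0.01 for either step.

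**Figure D2:**
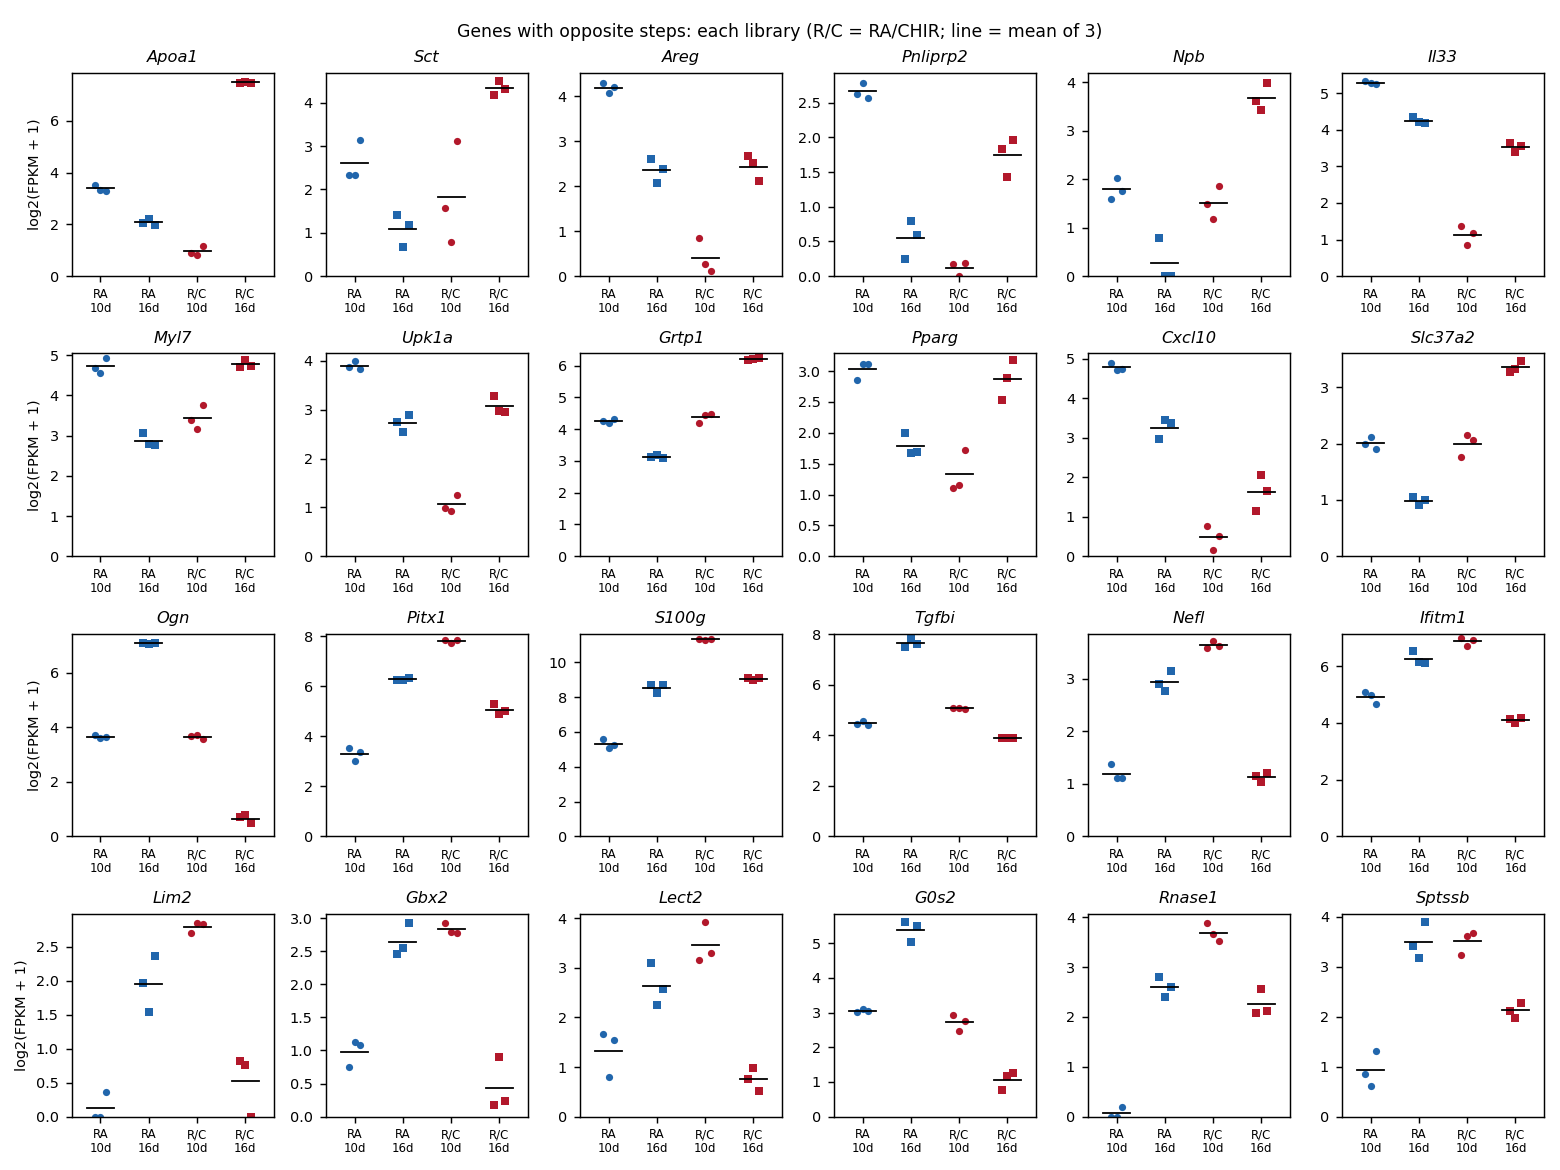
Each panel is 1 gene and each point 1 library, with log2(FPKM + 1) on the y axis and the 4 groups on the x axis (R/C, RA/CHIR; lines, means of 3). The 12 genes in the upper 2 rows fell in RA and rose in RA/CHIR, and the 12 genes in the lower 2 rows did the reverse. Ogn started from the same level in both arms and ended at 131 to 137 FPKM in RA and 0.389 to 0.738 in RA/CHIR.

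Of the 42 genes that fell in RA/CHIR and rose in RA, those of the extracellular matrix and of TGF-beta signalling are described first. They were picked from the 42 by their known roles, and the list of 25 fibroblast matrix genes did not move as they did. In that list 19 rose and none fell in RA/CHIR, and 24 rose in RA. Over all genes tested, 9.36% rose and 6.96% fell in RA/CHIR, and 8.13% rose in RA. Ogn codes for osteoglycin, a small proteoglycan that binds collagen. Ogn (chr13:49608046-49624501, plus strand) read 12.1, 11.1 and 11.6 FPKM in RA-10d and 11.7, 12.3 and 11 in RA/CHIR-10d. On day 16 it read 137, 131 and 135 in RA and 0.619, 0.738 and 0.389 in RA/CHIR. The arms shared one level on day 10 and had no overlap on day 16. Its difference of steps, -6.43, was the lowest of all genes tested. The SMC line stood at 19.6 ± 1.94 FPKM (SD, n = 3) and the XEN line at 0.0114 ± 0.0197. Ogn lies across Cenpp on the other strand.

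Tgfbi codes for a matrix protein induced by TGF-beta. It went from 21, 22.9 and 20.5 to 177.9, 227.5 and 195.9 FPKM in RA, and from 32.9, 32.7 and 32.3 to 14.0, 13.9 and 13.8 in RA/CHIR. RA/CHIR was the higher arm on day 10 and the lower arm on day 16, with libraries of a group close together. Tgfb3, a TGF-beta ligand, went from 71.9, 74.9 and 76.2 to 136, 167 and 155 in RA, and from 7.26, 6.38 and 8.20 to 2.47, 1.81 and 1.93 in RA/CHIR. It was lower in RA/CHIR on both days, and its RA step of 1.02 went under the minimum size without RA-16d replicate 2 (0.96) and under quantile normalization (0.83). Ltbp3, which binds latent TGF-beta in the matrix, went from 29.4 ± 0.612 to 65.3 ± 9.58 FPKM in RA and from 19.4 ± 0.995 to 7.29 ± 0.983 in RA/CHIR. Of 14 listed TGF-beta ligands and targets tested, 8 rose in RA and none fell, while 3 rose and 3 fell in RA/CHIR. The members Tgfbi and Tgfb3 are 2 of the 14, so they count among the rises in RA and the falls in RA/CHIR by choice. Over all genes tested, 8.13% rose and 1.98% fell in RA, and 9.36% rose and 6.96% fell in RA/CHIR. The median step of this list was 1.03 in RA and 0.32 in RA/CHIR, against 0.01 over all genes in each arm. The matrix genes Col8a1, Col9a2 and Matn4 were also among the 42. Col8a1 rose from 0.935 ± 0.235 to 12.3 ± 1.28 FPKM in RA and fell from 7.52 ± 0.765 to 3.23 ± 0.333 in RA/CHIR. The fall of Col8a1 was at -1.01 and went under the minimum size without RA/CHIR-10d replicate 2 (-0.95), without RA/CHIR-16d replicate 3 (-0.96) and, barely, without RA/CHIR-16d replicate 2 (-1.0).

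Markers of fibroblasts are given for the same 4 groups. The summed level of 10 listed feeder fibroblast genes was 32.4 to 37.3 FPKM in RA-10d and 693.5 to 760.3 in RA-16d. In RA/CHIR it was 19.6 to 21.5 on day 10 and 81.7 to 91.8 on day 16. Of these 10 genes, 8 rose in RA and 4 in RA/CHIR, and none fell in either arm. Of all genes tested, 8.13% rose and 1.98% fell in RA, and 9.36% rose and 6.96% fell in RA/CHIR. Fap, a protease of activated fibroblasts, read 6.05 ± 1.04 FPKM (SD, n = 3) in RA-16d and 0.201 ± 0.0784 in RA/CHIR-16d, and Prrx1 read 6.03 ± 0.80 and 2.63 ± 0.391. The difference of steps was called lower for 6 of the 10 genes, Fap and Prrx1 among them, and higher for 1, S100a4. S100a4 had steps of 2.91 in RA/CHIR and 0.79 in RA. Of all genes tested, the difference of steps was called lower for 9.61% and higher for 6.57%. The part of fibroblasts in the steps of the matrix genes was not tested.

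The transcription regulators among the 42 are described together. Pitx1 codes for a homeodomain factor of the hindlimb and pituitary. Pitx1 (chr13:55825051-55836192, minus strand) read 10.5, 7.06 and 9.36 FPKM in RA-10d and 75.8, 75.1 and 79.5 in RA-16d. In the RA/CHIR arm it read 233.7, 213.7 and 229.7 on day 10 and 38.3, 29.2 and 31.4 on day 16. The arm order turned without overlap on either day. Gbx2, a homeodomain factor of the midbrain and hindbrain border, went from 0.675, 1.19 and 1.11 to 4.49, 4.87 and 6.64 in RA, and from 6.64, 5.93 and 5.89 to 0.132, 0.874 and 0.174 in RA/CHIR. D130058E05Rik, a noncoding transcript on the other strand of Gbx2, is itself a member, with steps of 1.35 in RA and -1.76 in RA/CHIR. As the 2 genes overlap, their reads may not be separate. Cited1, a coregulator without DNA binding of its own, went from 12.3, 10.8 and 10.4 to 48.6, 29.3 and 38.9 FPKM in RA, and from 353, 332 and 359 to 108, 96.6 and 114 in RA/CHIR. It stayed higher in RA/CHIR on both days. Zic1, a zinc finger factor of neural tissue, went from 0.899, 0.657 and 0.410 to 1.78, 1.65 and 3.96 in RA, and from 8.02, 8.94 and 9.26 to 1.16, 2.41 and 2.10 in RA/CHIR. The arms overlapped for Zic1 on day 16, and its RA step of 1.01 was 0.72 without RA-16d replicate 3, 0.90 without RA-10d replicate 3 and 0.88 under quantile normalization.

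S100g had the highest level among the 59 genes. It codes for calbindin-D9k, a calcium-binding protein of intestine, uterus and yolk sac. S100g (chrX:162961992-162964599, minus strand) read 46.9, 32.9 and 37.2 FPKM in RA-10d and 410.5, 304.8 and 406.7 in RA-16d. In RA/CHIR it read 2588, 2496 and 2574 on day 10 and 554.9, 495.9 and 551.5 on day 16. RA/CHIR stayed above RA on both days, but the gap narrowed. S100g overlaps Ctps2 on the other strand. Ifitm1, a membrane protein of the interferon-induced family that stem cells also carry, went from 32.8, 30.2 and 24.3 to 90.8, 68.8 and 68.2 in RA, and from 126.5, 103.5 and 119.9 to 16.6, 14.9 and 16.9 in RA/CHIR. Car4, a carbonic anhydrase on the cell surface, went from 5.48 ± 0.878 to 13.6 ± 1.72 FPKM in RA and from 71.0 ± 6.13 to 9.95 ± 0.824 in RA/CHIR. For Ifitm1 and Car4 the arm order turned without overlap.

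Lect2 codes for a secreted protein of liver, where it is known as a Wnt target. It read 2.16, 0.737 and 1.91 FPKM in RA-10d and 7.57, 3.77 and 4.96 in RA-16d. In RA/CHIR it fell from 7.97, 14.2 and 8.90 to 0.688, 0.985 and 0.439. The 2 arms exchanged places, although RA-16d replicate 1 and RA/CHIR-10d replicate 1 lay close to one another. Chac1, an enzyme that breaks down glutathione and is induced by amino acid shortage through ATF4, went from 0.192, 0.714 and 0.694 to 2.98, 2.59 and 3.17 in RA, and from 11.3, 12.2 and 11.3 to 1.05, 1.69 and 1.15 in RA/CHIR. Its arms exchanged places as well. The promoters of these 2 genes are shown for their matches to elements of the pathways just named, with the same rules as above. Lect2 (chr13:56548539-56548788, minus strand) held the TCF/LEF motif, searched as CTTTGAA and CTTTGAT on both strands, 32 bases before its start. Chac1 (chr2:119350992-119351241, plus strand) held the amino acid response element, searched as TGATGNAA on both strands, 193 bases before its start.
Lect2: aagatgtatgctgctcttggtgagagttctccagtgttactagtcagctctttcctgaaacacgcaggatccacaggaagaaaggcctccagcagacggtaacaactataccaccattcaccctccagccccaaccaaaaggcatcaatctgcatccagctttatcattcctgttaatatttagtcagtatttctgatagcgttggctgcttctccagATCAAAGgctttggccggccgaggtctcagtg
Chac1: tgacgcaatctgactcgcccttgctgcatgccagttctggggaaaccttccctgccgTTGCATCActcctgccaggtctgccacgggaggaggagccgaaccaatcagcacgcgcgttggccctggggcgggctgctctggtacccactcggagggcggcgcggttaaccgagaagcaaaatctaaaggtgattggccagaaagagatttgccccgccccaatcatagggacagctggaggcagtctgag
The TCF/LEF motif occurred in 7.48% of all promoter windows, in 4 of 33 members that fell in RA/CHIR (Lect2, Chodl, Col9a2 and Mst1r) and in none of the 13 that rose. The amino acid response element occurred in 3.45% of all windows, in 3 of the 33 (Chac1, Crabp1 and Matn4) and in none of the 13. As above, the shares count windows and the members count genes, so they are not directly comparable.

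Another 5 genes of the 12 lowest differences of steps covered a range of functions. Nefl, a neurofilament protein, went from 1.59, 1.15 and 1.15 to 6.42, 5.79 and 7.83 FPKM in RA, and from 10.9, 12.2 and 11.3 to 1.21, 1.06 and 1.3 in RA/CHIR. G0s2, an inhibitor of fat breakdown, went from 7.03, 7.59 and 7.17 to 47.8, 31.9 and 44.5 in RA, and from 6.56, 4.58 and 5.70 to 0.699, 1.24 and 1.39 in RA/CHIR. Nefl turned its arm order, while G0s2 was lower in RA/CHIR on both days. Sptssb, a subunit of the enzyme that starts sphingolipid synthesis, went from 0.807, 0.533 and 1.49 to 9.64, 8.02 and 13.9 in RA, and from 8.38, 11.3 and 11.7 to 3.34, 2.92 and 3.86 in RA/CHIR. Rnase1, a secreted ribonuclease, went from 0, 0 and 0.146 to 5.97, 4.26 and 5.08 in RA, and from 13.7, 11.6 and 10.5 to 3.25, 4.89 and 3.35 in RA/CHIR. The arms of Rnase1 overlapped on day 16. Lim2, a lens membrane protein, went from 0, 0 and 0.286 to 2.90, 1.90 and 4.15 in RA, and from 5.50, 6.19 and 6.12 to 0.768, 0.697 and 0 in RA/CHIR. Its identifier was not in the annotation used here, so no position is given.

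Several secreted or membrane regulators of growth, and then 2 genes of retinoid and steroid handling, are described next. Igfbp2 binds insulin-like growth factors. It read 373.0, 350.1 and 359.2 FPKM in RA-10d and 847.3, 842.8 and 858.5 in RA-16d, and in RA/CHIR 125.5, 123.3 and 122.9 on day 10 and 17.4, 22.2 and 20.4 on day 16. Dlk1, an imprinted Notch-like membrane protein, went from 508.7, 512.3 and 506.6 to 1040.0, 1110.8 and 1184.6 in RA, and from 40.1, 36.7 and 40.2 to 9.38, 5.66 and 8.32 in RA/CHIR. Both were lower in RA/CHIR on both days, and the gap widened. Under quantile normalization their RA steps of 1.23 and 1.12 were 0.96 and 0.99, under the minimum size. Bmp4, a ligand of the BMP pathway, went from 9.33, 7.99 and 10.5 to 20.6, 26.3 and 19.7 in RA, and from 7.34, 6.31 and 7.49 to 1.05, 1.06 and 0.880 in RA/CHIR. Gdf15, a stress-induced hormone of the TGF-beta family, went from 3.36, 3.77 and 3.71 to 18.3, 16.0 and 18.1 in RA, and from 16.1, 18.7 and 20.2 to 6.29, 7.55 and 5.03 in RA/CHIR. Bmp4 stayed lower in RA/CHIR on both days, and Gdf15 turned its arm order. Sfrp2, a secreted Wnt inhibitor, rose from 3.48 ± 0.866 to 17.1 ± 3.08 FPKM (SD, n = 3) in RA and fell from 2.33 ± 0.370 to 0.200 ± 0.199 in RA/CHIR. Crabp1, which binds retinoic acid in the cytoplasm, read 4.96, 5.27 and 3.20 in RA-10d and 4.36, 4.25 and 4.10 in RA/CHIR-10d. It parted to 11.2, 10.4 and 12.9 in RA and 0, 0.507 and 0.239 in RA/CHIR. Cyp1b1, a cytochrome P450 that oxidises steroids and retinoids, went from 9.22 ± 0.296 to 24.7 ± 1.56 in RA and from 16.9 ± 0.549 to 4.16 ± 0.619 in RA/CHIR.

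The other genes that fell in RA/CHIR and rose in RA were H2-Ab1, Chodl, Mst1r, Fjx1, Mamld1, Mgarp, 2210011C24Rik, 9330182L06Rik, Smim10l2a, Cybrd1, Wipf3, Fxyd2 and Mid1ip1. H2-Ab1, a chain of the class II antigen-presenting complex, rose from 0.564 ± 0.161 to 10.8 ± 1.1 FPKM in RA and fell from 9.46 ± 1.76 to 4.15 ± 0.541 in RA/CHIR. Its fall of -1.01 was under the minimum size without RA/CHIR-10d replicate 2 (-0.88) and without RA/CHIR-16d replicate 2 (-0.93). Mgarp, a mitochondrial protein, went from 1.47 ± 0.388 to 7.57 ± 0.854 in RA and from 28.3 ± 2.27 to 13.1 ± 1.11 in RA/CHIR, and stayed higher in RA/CHIR. Fxyd2, a subunit of the sodium pump, was the least certain member. Its steps of 1.07 and -1.07 were not both called without each of 8 libraries in turn. Over the 42 genes the RA/CHIR steps ran from -3.01 to -1.01 with a median of -1.65, and the RA steps from 1.01 to 3.42 with a median of 1.43. The median over all genes tested was 0.01 for either step.

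The order of the arms was compared library by library, as a description, since the choice of members used these groups. Of the 42 genes, 23 were higher in RA/CHIR on day 10 and lower on day 16, without overlap on either day. That turn was found in 663 of 14812 genes, or 4.48%. Lower on both days were 9 of them, among them Bmp4, Igfbp2, Dlk1, Tgfb3 and G0s2, and higher on both days were S100g, Cited1 and Mgarp. Of the 17 genes, 10 turned the other way, from lower to higher in RA/CHIR, which 614 genes (4.15%) did. Another 2 of the 17, Il33 and Cxcl10, were lower in RA/CHIR on both days. The remaining members overlapped between the arms on 1 of the days. Ogn, Crabp1, Matn4 and Fxyd2 parted downward in RA/CHIR from a shared level, and Sct, Npb, Grtp1 and Slc37a2 parted upward.

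The cell lines were used in no choice of members. XEN and SMC differed in 4512 of 14812 genes (30.5%; limma on all 33 libraries, the same thresholds). Of the 42 genes, 8 were higher in XEN, where 13.4% of all genes were, and 17 were higher in SMC, where 17.1% were. The genes higher in SMC included Cyp1b1, at 106 ± 4.80 FPKM (SD, n = 3) in SMC and 0.0157 ± 0.0272 in XEN, and Tgfb3, at 278 ± 2.92 and 3.45 ± 0.377. Those higher in XEN included Car4, at 203 ± 22.3 in XEN and 0.291 ± 0.503 in SMC, and Pitx1, at 92.2 ± 10.2 and 0.809 ± 0.113. Pitx1 and Car4 thus fell in the arm labelled XEN-like while the XEN line expressed them. Of the 17 genes, 6 were higher in XEN and 1, Sct, in SMC. Cxcl10 stood at 43.1 ± 1.73 FPKM in XEN and 1.52 ± 0.303 in SMC, and Il33 at 17.7 ± 0.652 and 1.03 ± 0.132. Between day 10 and day 16, RA/CHIR moved nearer to the XEN level in 33 of the 42 genes but in 4 of the 17, where 47.9% of all genes did. RA moved nearer to the SMC level in 16 of the 17 genes and in 13 of the 42, where 59.2% of all genes did. Toward the mES level, RA/CHIR moved in 30 of the 42 and 2 of the 17, where 42% of all genes did, and RA in 12 of the 42 and 12 of the 17, where 44% did. These counts follow in part from the direction that chose the members.

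Days 4 and 7 gave the change while the inducers were still present, in libraries that the choice did not use. The choice still bears on these counts. A member had to stand high enough on day 10 in the arm where it then fell, which favours genes that had risen there before. In RA/CHIR, 334 of 14812 genes (2.25%) were called between day 4 and day 7, 180 of them higher (1.22%) and 154 lower (1.04%). Of the 42 genes, 13 were higher on day 7 in RA/CHIR and 2 were lower, Gbx2 and Crabp1. S100g rose from 221 ± 8.24 FPKM (SD, n = 3) on day 4 to 1291 ± 30.1 on day 7 (2.54 on the log2 scale, limma adjusted p = 7.2e-13), and Pitx1 from 76.7 ± 5.74 to 185 ± 6.00 (1.26, limma adjusted p = 6.6e-10). Lect2 rose from 3.70 ± 1.05 to 13.2 ± 1.88 (1.61, limma adjusted p = 3.9e-06). These 3 genes rose in RA/CHIR from day 4 to day 7 and fell from day 10 to day 16. On day 10, S100g read 2553 ± 49.3, Pitx1 226 ± 10.6 and Lect2 10.4 ± 3.38. In RA, 692 genes (4.67%) were called over the same days, 448 higher (3.02%) and 244 lower (1.65%), among them 5 of the 42 higher and 7 lower. S100g fell there by 1.31 on the log2 scale (limma adjusted p = 3.4e-08), Ifitm1 by 1.03 (limma adjusted p = 1.1e-06) and Gbx2 by 2.46 (limma adjusted p = 7.6e-12), so their rise after day 10 came after a fall. Gbx2 was lower on day 7 than on day 4 in both arms.

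Of the 17 genes, 4 were higher on day 7 than on day 4 in RA (Apoa1, Areg, Pnliprp2 and Pparg) and none was lower. Areg rose from 0.10 ± 0.0407 FPKM to 8.51 ± 0.267 (3.11, limma adjusted p = 3.4e-15), and Apoa1 from 10.1 ± 1.42 to 24.3 ± 4.51 (1.18, limma adjusted p = 1.7e-06). In RA/CHIR, Areg read 0.0230 ± 0.0398 and 0.0539 ± 0.0468 on these days. By day 10, with retinoic acid still present, the RA levels of Areg and Pnliprp2 were higher still, at 17.4 ± 1.47 and 5.34 ± 0.491 FPKM. Apoa1 had already fallen to 9.53 ± 0.872, and Pparg stood at 7.19 ± 0.838 after 9.51 ± 0.632 on day 7. Over the same days in RA, Cxcl10 went from 54.9 ± 1.35 to 26.5 ± 1.97, while Il33 went from 14.7 ± 0.243 to 37.8 ± 1.07. The change from day 7 to day 10 was not tested. Of the 17 genes, 1, Myl7, was called in RA/CHIR, at 1.75 ± 0.184 FPKM on day 4 and 6.56 ± 1.38 on day 7 (1.45, limma adjusted p = 2.3e-05). Myl7 thus rose in RA/CHIR before the inducers were removed as well as after.

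**Figure D3:**
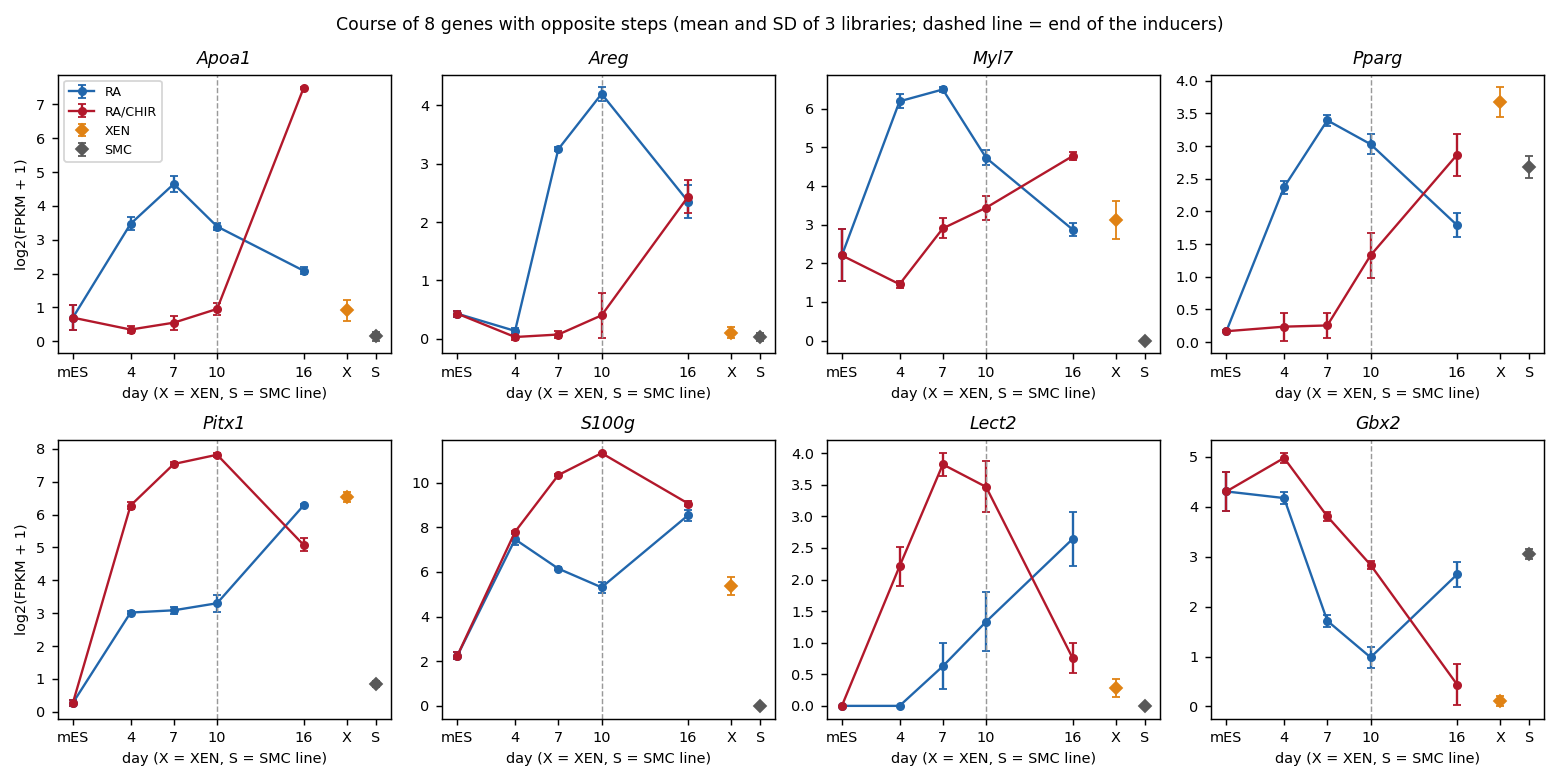
Mean and SD of log2(FPKM + 1) over 3 libraries on the y axis, against mES, days 4, 7, 10 and 16 of the RA arm (blue) and the RA/CHIR arm (red), and the XEN (X) and SMC (S) lines on the x axis, for 8 genes. The dashed line marks day 10, when the inducers were left out. S100g, Pitx1 and Lect2 climbed in RA/CHIR to day 7 and were lower on day 16 than on day 10, while Areg rose late in RA and then fell.

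Gene lists of the pathways show what surrounded the members. Over all genes tested, 6.96% fell and 9.36% rose in RA/CHIR, and 1.98% fell and 8.13% rose in RA. Of 25 Wnt/beta-catenin targets and feedback genes tested, 17 fell and 1 rose in RA/CHIR, while 3 fell and 1 rose in RA. Their median step was -1.55 in RA/CHIR and -0.07 in RA, against 0.01 for all genes in each arm. Opposite signs were found in 12 of the 25, where 36.3% of all genes had them, and none was a member, where 0.398% of all genes were. Nkd1 and Apcdd1 were picked from the list for large differences of steps, so their steps are a description, without p-values. Nkd1, a feedback inhibitor, went from 105 ± 3.05 to 3.93 ± 0.666 FPKM (SD, n = 3) in RA/CHIR (-4.43 ± 0.10, SE). In RA it stood at 40.8 ± 2.82 and 48.7 ± 5.37 (0.25, not called). Apcdd1, another inhibitor, fell by 3.09 in RA/CHIR, and its RA step of 0.87 was under the minimum size. Axin2, a standard readout of the pathway, fell in both arms, with steps of -4.26 ± 0.12 in RA/CHIR and -1.36 ± 0.12 in RA.

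Of 22 genes of retinoid metabolism and response, 13 fell and 3 rose in RA/CHIR, and 5 fell and 4 rose in RA. Over all genes tested, 6.96% fell and 9.36% rose in RA/CHIR, and 1.98% fell and 8.13% rose in RA. The medians of the list were -1.10 and -0.47, against 0.01 for all genes in each arm. Rarb, a retinoic acid receptor that retinoic acid itself induces, fell in both arms, by 1.82 ± 0.18 (SE) in RA/CHIR and 1.94 ± 0.18 in RA. The difference of these steps was 0.12 ± 0.26 (limma adjusted p = 0.73). Cyp26a1, the enzyme that clears retinoic acid, went from 1376 ± 22.9 to 190.4 ± 4.46 FPKM (SD, n = 3) in RA/CHIR and from 177 ± 7.15 to 91.5 ± 3.64 in RA. Crabp1 was the one member of this list. Its relative Crabp2 had steps of -0.95 in RA/CHIR and 1.09 in RA, just under the limit in the first. Aldh1a2, which makes retinoic acid, fell by 1.07 in RA/CHIR and had a step of 0.88 in RA.

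The integrated stress response list, to which Chac1 belongs, had 7 genes falling and 2 rising of 18 in RA/CHIR, and 5 rising and none falling in RA. Its medians were -0.49 and 0.53, against 0.01 for all genes in each arm. Over all genes tested, 6.96% fell and 9.36% rose in RA/CHIR, and 1.98% fell and 8.13% rose in RA. Asns, which makes asparagine, fell from 206 ± 3.11 to 31.9 ± 2.80 FPKM in RA/CHIR and had a step of -0.36 in RA. Of 22 visceral endoderm genes, the list of Apoa1, 17 rose in RA/CHIR against 4 in RA, with medians of 2.61 and 0.13. Afp, alpha-fetoprotein, went from 0.786 ± 0.568 to 168 ± 3.69 FPKM in RA/CHIR. It was called as rising in both arms, with steps of 6.61 in RA/CHIR and 1.59 in RA. Fgb, a fibrinogen chain, rose by 5.64 ± 0.09 (SE) in RA/CHIR and had an RA step of -0.31, too small for a call. Cited1, also on this list, moved the other way from Apoa1. Of 22 contractile smooth muscle genes, 21 rose in RA and 11 in RA/CHIR, and of 25 fibroblast matrix genes 24 and 19, where 8.13% of all genes rose in RA and 9.36% in RA/CHIR. Eln, elastin, rose from 0.641 to 1.36 FPKM in RA-10d to 96.7 to 163 in RA-16d, and read 0 to 0.134 in the 6 RA/CHIR libraries. Of 16 interferon response genes, 13 rose in RA and 6 in RA/CHIR, where 1 fell. Cxcl10, itself not on that list, fell in RA.

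**Figure D4:**
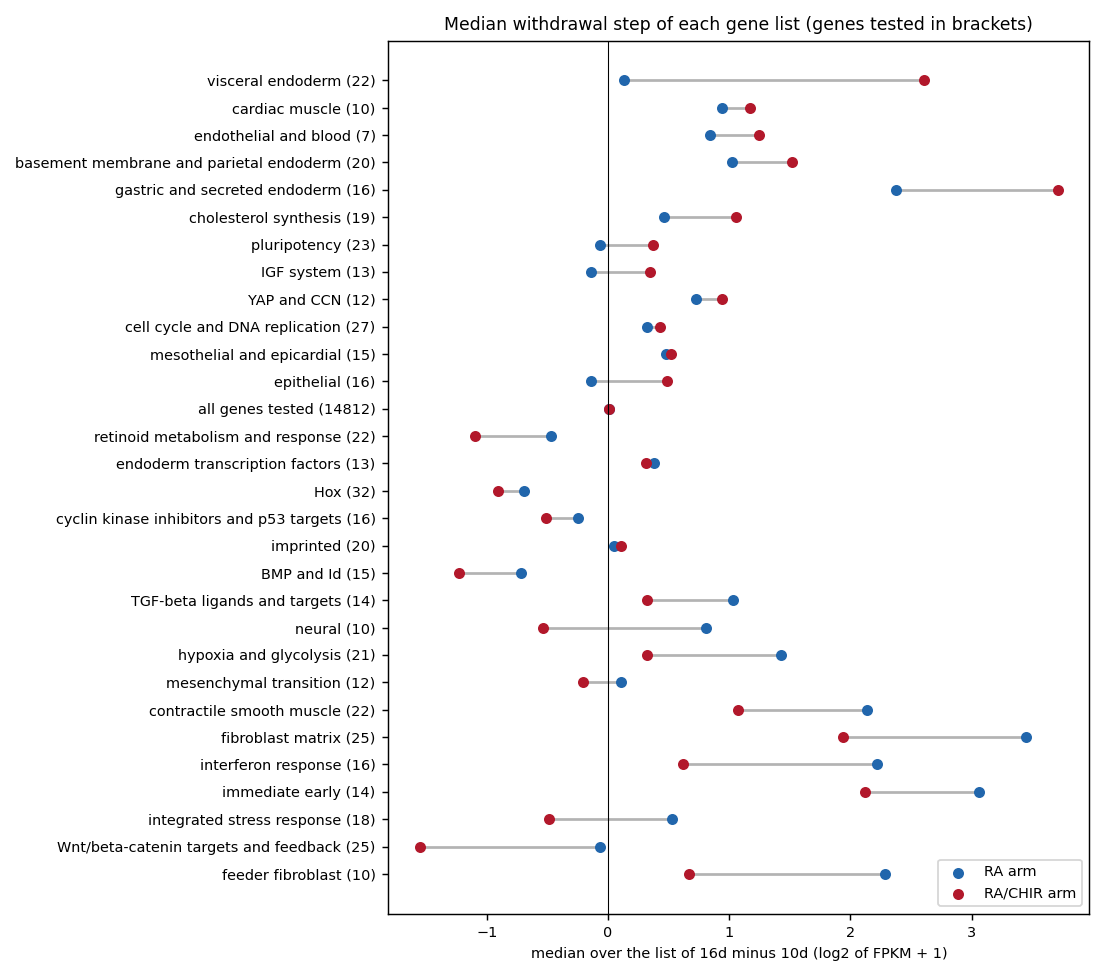
Median step from day 10 to day 16 on the x axis, on the log2(FPKM + 1) scale, for each gene list on the y axis, with the number of genes tested in brackets. Blue points are the RA arm and red points the RA/CHIR arm. For Wnt/beta-catenin targets the medians are -0.07 and -1.55, for visceral endoderm 0.13 and 2.61, and for the integrated stress response 0.53 and -0.49.

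The count of 59 depends on how low values are treated. With a pseudocount of 0.1 in place of 1, 181 genes were called in both steps with opposite signs, 62 of them up in RA/CHIR and 119 down, and 58 of the 59 were among them. Of the 59, 40 stayed members when any 1 library was left out, and 25 overlap another annotated gene.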

How the data were processed

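RNA of mouse stem cells, their differentiated derivatives and 2 cell lines was sequenced in 33 libraries, 3 in each of 11 groups. The authors deposited 1 table of FPKM values (fragments scaled by transcript length and by mapped fragments), a normalised unit from which counts were not taken. Trimmomatic 0.33, HISAT2 2.0.4, Cufflinks, Cuffdiff and build GRCm38 are named in the submitters' processing notes. Whether the counting used strand is not given in the sources used here, so values of overlapping genes are uncertain.

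Groups came from the labels. Genes at 1 FPKM or more in at least 3 of the 12 libraries of RA-10d, RA-16d, RA/CHIR-10d and RA/CHIR-16d were kept (14812 of 52631). Values were transformed to log2(FPKM + 1), which understates changes of low genes, and fitted with limma 3.58.1 in R 4.3.3, with a variance trend and 4 group means (8 residual degrees of freedom). The contrasts were both steps and their difference. P-values were adjusted by Benjamini-Hochberg over all genes tested, and a call needed an adjusted p under 0.05 and a size of at least 1. Days 4 and 7 and the XEN and SMC lines were compared in a fit of all 33 libraries. The fit was tested on simulated data with independent normal noise, for the call of the difference of steps only. The opposite calls that define the members were not simulated. Identifiers of 52398 genes matched the gene annotation, and 13 symbols that a spreadsheet had turned into dates were restored. Named genes are the 12 members with the largest difference of steps in each direction with a mean of 5 FPKM or more in a group and no overlap between day 10 and day 16 in either arm, the 4 largest differences in each direction among other called genes, 15 fixed marker and pathway genes, and up to 4 genes of each list. Predicted genes and shared symbols were passed over. Members described beyond these were chosen after their values were seen. Members and gene lists were chosen with earlier results of these data known, so they are no independent evidence. Alternatives were factors of the TMM kind, quantile normalization, another pseudocount, other filters, all libraries in the fit, no variance trend, a replicate block, no minimum size, and each library left out.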

Additional observations from a re-analysis of the deposited data

Results flagged for a closer look

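The change from day 10 to day 16 differed between the arms (limma, adjusted p under 0.05 and a difference of at least 1) for 2396 genes. The members named next were chosen for opposite calls, so their difference is at least 2 by that choice and all 59 were called. Their values are a description that the test does not support. Among the genes that rose in RA/CHIR and fell in RA, the RA/CHIR step minus the RA step was 7.84 for Apoa1, 4.01 for Sct, 3.88 for Areg, 3.74 for Pnliprp2, 3.70 for Npb and 3.43 for Il33. It was 3.19 for both Myl7 and Upk1a, 2.96 for Grtp1, 2.78 for Pparg, 2.66 for Cxcl10 and 2.38 for Slc37a2. Among the genes that fell in RA/CHIR and rose in RA it was -6.43 for Ogn, -5.72 for Pitx1, -5.49 for S100g, -4.33 for Tgfbi, -4.25 for Nefl and -4.13 for Ifitm1. It was -4.10 for Lim2, -4.06 for Gbx2, -4.02 for Lect2, -3.99 for G0s2, -3.96 for Rnase1 and -3.94 for Sptssb.

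Other genes differed between the arms by that test without opposite calls. The difference was 5.94 for Fgb, 5.82 for Gkn2, 5.67 for Ttr, 5.65 for Zg16 and 5.02 for Afp, and 2.07 for Gata6. It was -6.09 for Eln, -5.72 for Pgc, -5.61 for Lum and -5.08 for Mgp. For the pathway genes it was -2.90 for Axin2, -1.90 for Cyp26a1 and -1.43 for Lef1. For the endoderm factor Sox17 it was -1.36, from steps of 0.11 in RA/CHIR and 1.48 in RA.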

How the results depend on the processing

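Of 129 counts of called genes under the alternatives, 119 stayed within 1.5 times the value given above, and of 2971 values of named genes 2936 kept direction and side of the threshold, 31 lost the call, 4 gained it and none reversed. With a pseudocount of 0.1, opposite calls rose to 181, the calls between day 4 and day 7 to 785 in RA/CHIR and 1303 in RA. The 1031 lower calls of the RA/CHIR step became 1593 with that pseudocount, and the 154 lower calls of days 4 to 7 in RA/CHIR became 268 with no filter and 92 with a filter at 5 FPKM. With no minimum size the counts were 6618 for the difference of steps, 8570 for the RA/CHIR step, 6346 for the RA step, 890 for opposite calls, 4365 and 5584 for days 4 to 7 in RA/CHIR and RA, and 10171 for XEN against SMC, as fewer conditions were set. Leaving out each library in turn gave 2346 to 2467 genes for the difference of steps, 2407 to 2441 for the RA/CHIR step, 1481 to 1521 for the RA step, 56 to 65 opposite calls, 330 to 360 and 690 to 720 for days 4 to 7 in RA/CHIR and RA, and 4495 to 4536 for XEN against SMC. Of the 59 members, 33 were called in all 20 settings that kept the minimum size, 8 of them up in RA/CHIR and 25 down. Quantile normalization gave 60 opposite calls, 52 of them among the 59, moved the median RA step of all genes to -0.10, and changed the share of RA calls that were higher from 80.4% to 69.2%. The cause was not tested. Same-numbered libraries had correlations of -0.1 to 0.139 in their deviations. The highest were between RA/CHIR-10d and RA/CHIR-16d, at 0.029, 0.072 and 0.139. Such low values do not show a pairing by number, but a weak one would also give them, so it is not excluded. With the replicate block, 59 genes had opposite calls (58 of the 59 members), 2391 were called in the difference of steps, 2419 and 1496 in the RA/CHIR and RA steps, 334 and 690 for days 4 to 7, and 4514 for XEN against SMC. Since read counts were not used, counting error at low FPKM is not known.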
